A study of Mus musculus with 72 samples.

Results

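RNA was sequenced from mouse gastrocnemius, a fast hindlimb muscle, and from lung, heart, liver and white fat, and 10 antioxidant genes of the 55401 genes counted are described here. They were taken by name, with earlier results of these data known: *Nqo1*, *Srxn1*, *Txnrd1*, *Gclc*, *Gclm*, *Hmox1*, *Cat*, *Sod1*, *Sod2* and *Nfe2l2*, the last of which encodes the transcription factor NRF2. All 10 had a mean above 5 normalized counts in every fit, so none was lost to the filter on low values. All mice were male. WT mice were littermates of *Bmal1*-KO mice, which were homozygous for a whole-body null allele of the core clock gene *Bmal1* (*Arntl* in the files). KO+AAV mice were *Bmal1*-KO mice that received, as pups, an AAV9 vector with HA-tagged *Bmal1* cDNA under the muscle-specific CK6 promoter. KO+GFP mice received AAV9-CK6-GFP, and KO-Control mice were their own comparison group, so both of these groups also lacked *Bmal1*.

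Gastrocnemius at 10 weeks of age came from 6 WT, 6 KO and 7 KO+AAV mice, and at 40 weeks from 5 mice of each. The GFP experiment had 3 KO+GFP and 3 KO-Control gastrocnemius muscles at 10 weeks, and each of the other tissues had 4 KO and 4 KO+AAV samples at 40 weeks. No WT sample of lung, heart, liver or white fat was analysed here, so a genotype effect could be measured in gastrocnemius only. The vector restores *Bmal1* in some skeletal muscles and not in every tissue. HA-tagged protein was detected by the study in gastrocnemius, but not in soleus, diaphragm, heart, liver or lung. Whole tissue was sequenced, so fewer cells of a type and less RNA per cell cannot be told apart. The study collected its RNA-seq samples at a single time of day, soon after lights on. Levels at other times of day were therefore not measured.

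NRF2 is held in the cytoplasm and marked for degradation by KEAP1. When oxidants or electrophiles modify cysteines of KEAP1, NRF2 accumulates, enters the nucleus, pairs with small MAF proteins and binds antioxidant response elements (AREs) in its target genes. *Nqo1*, *Gclc*, *Gclm*, *Hmox1*, *Txnrd1* and *Srxn1* are among its best known targets, whereas catalase and the superoxide dismutases are also under other controls. BMAL1, with CLOCK, binds E-boxes, and in muscle, which makes superoxide and peroxide as it contracts and respires, the clock and redox control have been linked.

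The promoter sequences are shown because both factors act on short DNA words. The RefSeq promoter table (GRCm38.p6), which covers 250 bases before to 50 bases after each start site, held 10 promoters of 8 of these genes, 3 of them for *Txnrd1*. *Gclc* and *Hmox1* had no entry. The ARE core, TGACNNNGC on either strand, was found for 5 of the 8 genes (*Gclm*, *Txnrd1*, *Srxn1*, *Sod1* and *Nfe2l2*), and 12.4% of all 32851 promoters in the table held it. Counts here are per gene, by a match in any of its promoters, whereas shares are per promoter. The promoter windows of *Nqo1*, *Cat* and *Sod2* held none, but bases outside these windows were not searched, so an ARE there would be missed. The E-box CACGTG, which reads the same on both strands, was found for 0 of the 8 genes and in 7.15% of all promoters. A match of letters was not a measure of binding. Upstream matches of 4 genes are printed 5′ to 3′ on the gene's strand, with the ARE core or its reverse complement in capitals:
Gclm, chr3:122245403-122245451, plus strand: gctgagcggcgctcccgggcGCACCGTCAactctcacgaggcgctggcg
Txnrd1, chr10:82859094-82859142, plus strand: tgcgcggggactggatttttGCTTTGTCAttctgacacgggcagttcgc
Sod1, chr16:90220686-90220734, plus strand: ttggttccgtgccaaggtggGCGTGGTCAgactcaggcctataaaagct
Nfe2l2, chr2:75704875-75704913, minus strand: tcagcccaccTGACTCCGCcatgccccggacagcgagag
The matches ended 125, 83, 47 and 231 bases before the start site in *Gclm*, *Txnrd1*, *Sod1* and *Nfe2l2*. The match of *Srxn1* lay past its start. On GRCm38 *Nqo1* lies at chr8:107388225-107403206 (minus strand), *Srxn1* at chr2:152105516-152111376 (plus) and *Cat* at chr2:103453849-103485160 (minus).

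Values below are DESeq2-normalized counts, which can be compared between samples for 1 gene but not between genes, and groups are given as mean ± SD. A gene was called changed at a Benjamini-Hochberg adjusted P under 0.05 over all genes in limma. Where groups are said not to overlap, the share of all genes without overlap was not counted, so this is description only. *Arntl* was lower in KO than in WT muscle at 10 weeks (log2 fold change -1.14, exact permutation P = 0.005, two-sided, n = 6 and 6). At 40 weeks it was 480 to 608 in WT and 308 to 395 in 4 KO libraries, but 1039 in the library labelled KO replicate 2, above every WT library. The log2 difference in *Arntl* at 40 weeks was -0.38 (exact permutation P = 0.27) with that library and -0.70 (P = 0.00794, the smallest that 126 arrangements allow) without it. *Arntl* counts did not separate KO+AAV from KO at 10 weeks (exact permutation P = 0.77). At 40 weeks the log2 difference, KO+AAV minus KO, was -0.48 (exact permutation P = 0.0952), with the library labelled KO replicate 2 included. The study did detect HA-tagged BMAL1 protein in gastrocnemius of KO+AAV mice at 10 weeks. The library labelled KO replicate 2 at 40 weeks had the highest value of its group for 7 of the 10 genes, and KO+AAV replicate 2 at 40 weeks for 9 of 10, so results at 40 weeks were also computed without both. Heart KO replicate 2 carried 859141 normalized counts of the liver gene *Alb* against 153 to 216 in the other KO hearts, and white fat KO replicate 2 carried 748500 of the epididymal gene *Gpx5* against at most 2. Gastrocnemius libraries held 9325122 to 13610317 reads counted on genes when sequenced at Novogene and 32563431 to 41733282 at ICBR, and the thinnest value of these 10 genes, one of *Hmox1*, rested on 31 reads.

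The first comparison, KO with WT muscle, asked whether redox defense differs where *Bmal1* is lost. At 40 weeks *Nqo1* was the 1 gene of the 10 that rose, to 1.99 times the WT level, and none fell, in a comparison where 23.5% of all 16199 genes were called. At 10 weeks 0 of 10 genes were called (limma), against 8% of all genes. At an unadjusted P under 0.05 the count at 10 weeks was 2 of 10, *Nqo1* and *Gclm*, against 19.6% of all genes, edgeR called 0 and DESeq2 called 1 (*Nqo1*). The median log2 fold change of the 10 genes was -0.01 at 10 weeks and 0.19 at 40 weeks, and that of all genes was 0.01 and -0.01.

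*Nqo1* encodes NAD(P)H quinone dehydrogenase 1, which reduces quinones without forming reactive semiquinones. Its normalized counts at 40 weeks were 495, 350, 503, 482 and 395 in WT muscle and 725, 774, 1304, 862 and 822 in KO muscle. The groups did not overlap, and KO replicate 3, at 1304, stood above the other 4 KO libraries. The means were 897 ± 233 in KO and 445 ± 68.4 in WT (log2 fold change 0.99, SE 0.15, limma adjusted P = 1.46e-05). With replicate 3 of KO left out the log2 fold change of *Nqo1* was 0.85, with both replicate 2 libraries left out it was 1.04, and it was called in each setting tried. KO replicate 3 also had the highest summed level of the slow fiber markers (*Myh7*, *Tnnt1* and 6 others), 17739 RPM (reads scaled to library size) against 3307 to 6311 in the other KO libraries and 1268 to 5436 in WT. Of those 8 markers 0 were called by limma between KO and WT and 3 had an unadjusted P under 0.05 (median log2 fold change 2.28, all 8 above 0), and the part of fiber type in *Nqo1* was not tested. Single markers of other lists were called in the same comparison. *Sln* and *Actc1* were higher by 6.12 and 2.54 on the log2 scale, and their list, cardiomyocyte markers with 2 of 3 called, summed to 186 to 399 RPM in KO and 26.9 to 44.8 in WT. The heart myosin gene *Myh6* of that list overlapped, at 12.5 to 92.4 normalized counts in KO and 7.08 to 67.2 in WT. Of 6 adipocyte markers *Lep* (-5.82) and *Adipoq* (-2.06) were lower, with sums of 96.7 to 184 and 104 to 261 RPM. *Pvalb* (-0.95, 1 of 6 skeletal muscle markers, 66895 to 137418 and 101907 to 134579 RPM) and *Pecam1* (0.40, 1 of 6 endothelial markers, 222 to 369 and 217 to 287 RPM) were called as well. Their part in *Nqo1* was not tested.

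At 10 weeks *Nqo1* ranged from 243 to 375 in WT (median 314) and from 320 to 480 in KO (median 443), so the groups overlapped. The means were 417 ± 66.1 and 315 ± 44.7 (log2 fold change 0.40, SE 0.14, limma adjusted P = 0.0749). Within site the *Nqo1* log2 fold change was 0.56 in the ICBR libraries and 0.24 in the Novogene libraries, neither called. The KO against WT difference of *Nqo1* was 0.59 larger on the log2 scale at 40 than at 10 weeks (SE 0.21, limma adjusted P = 0.200). For this test of the difference between ages 0 of the 10 genes and 0.37% of all genes were called, with 1 of 10 and 13% at an unadjusted P under 0.05, and edgeR and DESeq2 called 0 of the 10.

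**Figure D1:**
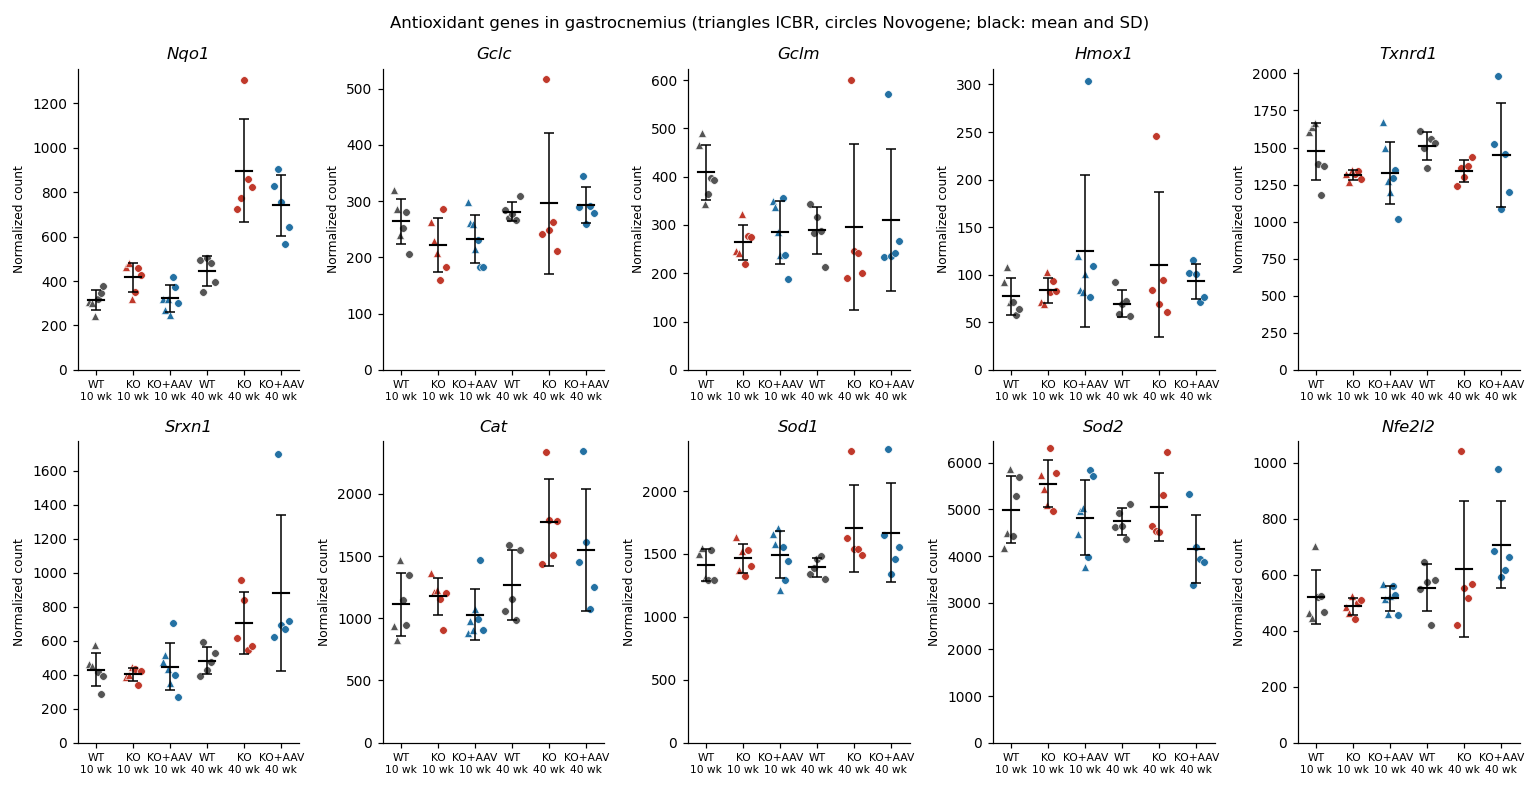
Normalized counts of the 10 genes in each of the 34 gastrocnemius libraries of the main experiment, by group and age; triangles are ICBR libraries, circles Novogene libraries, and black lines the mean and SD. The 5 KO libraries at 40 weeks lie between 725 and 1304 for *Nqo1*, all above the 5 WT libraries, whose highest value is 503.

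The other thiol enzymes of the set are sulfiredoxin (*Srxn1*), which repairs overoxidized peroxiredoxins, and thioredoxin reductase 1 (*Txnrd1*), which keeps cytosolic thioredoxin reduced with NADPH. *Srxn1* at 40 weeks was 391, 590, 430, 475 and 527 in WT and 614, 958, 838, 548 and 570 in KO. KO replicates 4 and 5 lay inside the WT range, and the difference did not pass the test (log2 fold change 0.52, SE 0.23, limma adjusted P = 0.0908). *Txnrd1* was 1363 to 1613 in WT and 1239 to 1433 in KO at 40 weeks (log2 fold change -0.17, limma adjusted P = 0.290). It was also not called at 10 weeks (-0.16, limma adjusted P = 0.458).

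Glutamate-cysteine ligase makes the first and rate-limiting step of glutathione synthesis, with *Gclc* encoding the catalytic and *Gclm* the modifier subunit. At 10 weeks *Gclm* ranged from 343 to 490 in WT (median 395) and from 220 to 323 in KO (median 260), with no overlap. It was 264 ± 36.1 in KO and 409 ± 57.4 in WT (log2 fold change -0.63, SE 0.22, limma adjusted P = 0.0704). Both sites gave a lower value in KO (-0.67 at ICBR and -0.59 at Novogene, neither called). Of the 10 genes, *Gclm* had the lowest log2 fold change at 10 weeks and *Nqo1* the highest. They were picked as the ends of the 10 values, and neither was called. At 40 weeks *Gclm* was 344, 283, 317, 288 and 213 in WT and 190, 600, 247, 243 and 200 in KO. The value of 600 belonged to the library labelled KO replicate 2, and the log2 fold change was -0.09 (limma adjusted P = 0.821). *Gclc* was 206 to 320 in WT and 160 to 286 in KO at 10 weeks (-0.27, limma adjusted P = 0.362), and its log2 fold change at 40 weeks was 0.00 (limma adjusted P = 0.988). The exons of *Gclm* overlap *Gm17494* on the other strand over 4.71% of their bases, and whether counting used strand was not given in the sources used here.

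*Hmox1*, heme oxygenase 1, degrades heme to biliverdin, iron and carbon monoxide and is low in resting muscle. It was 57 to 108 in WT and 69 to 103 in KO at 10 weeks, and 56 to 92 in WT at 40 weeks. In KO muscle at 40 weeks *Hmox1* was 84, 245, 69, 95 and 61, with the value of 245 again in the library labelled KO replicate 2 (log2 fold change 0.48, limma adjusted P = 0.258).

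Catalase (*Cat*) splits hydrogen peroxide in peroxisomes, and the superoxide dismutases turn superoxide into peroxide in the cytosol (*Sod1*, copper and zinc) and the mitochondrial matrix (*Sod2*, manganese). *Cat* at 40 weeks was 1060, 1590, 1154, 988 and 1551 in WT and 1438, 2335, 1790, 1510 and 1780 in KO. The groups overlapped, with KO replicates 1 and 4 inside the WT range, and the difference just missed the threshold (log2 fold change 0.49, SE 0.18, limma adjusted P = 0.0529). *Sod1* at 40 weeks was 1339, 1388, 1457, 1481 and 1302 in WT and 1627, 2316, 1543, 1544 and 1491 in KO. Every KO value lay above every WT value, also without the library labelled KO replicate 2, but the difference was not called (log2 fold change 0.27, SE 0.12, limma adjusted P = 0.0994). *Sod2* was 4374 to 5124 in WT and 4521 to 6220 in KO at 40 weeks (0.08, limma adjusted P = 0.681), and 16.2% of the 75-base words of its exons also occur in other genes. *Nfe2l2* itself was 419 to 644 in WT and, apart from 1042 in the library labelled KO replicate 2, 421 to 568 in KO (0.11, limma adjusted P = 0.688). At 10 weeks none of these 4 genes had a log2 fold change beyond 0.16 in size.

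**Figure D2:**
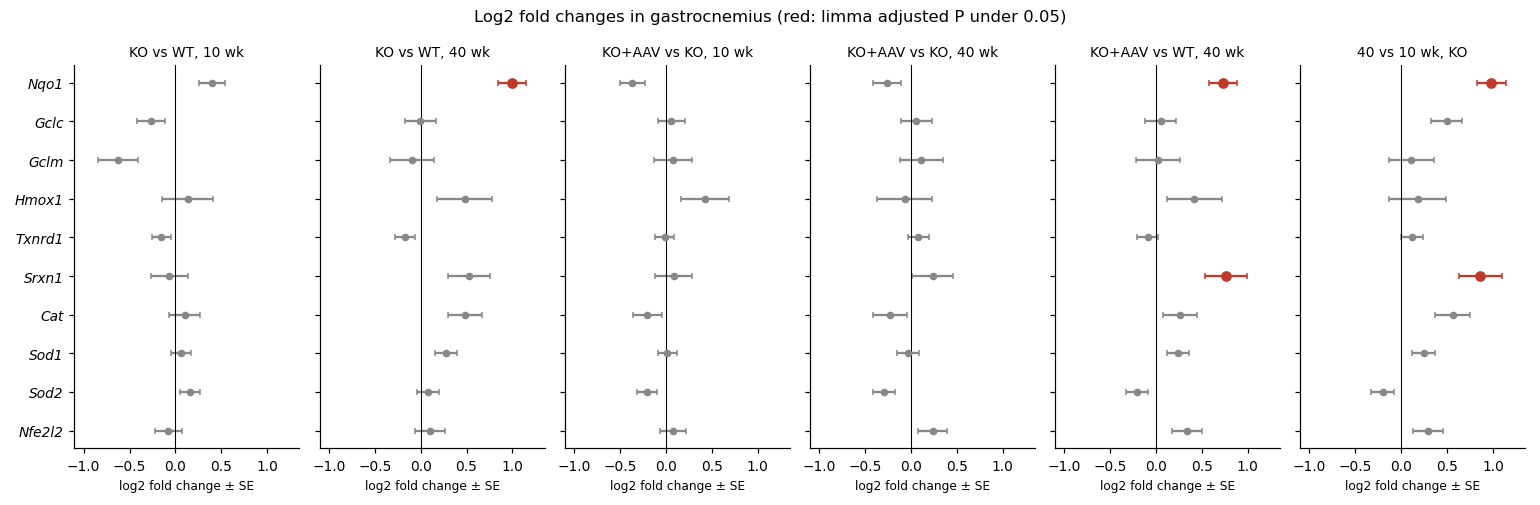
Log2 fold changes of the 10 genes with their standard errors in 6 comparisons of gastrocnemius groups; red points pass an adjusted P of 0.05 in limma, gray points do not. *Nqo1* is red in KO against WT at 40 weeks (0.99), in KO+AAV against WT at 40 weeks (0.73) and in 40 against 10 weeks in KO (0.98), and no point is red in KO+AAV against KO.

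KO+AAV was compared with KO to ask what muscle *Bmal1* delivery changed, with the KO libraries shared with the comparison above. None of the 10 genes was called at either age (limma). All genes were called in 0.204% of cases at 10 weeks and 0.259% at 40 weeks, so few calls could fall on any set of 10. At an unadjusted P under 0.05 the count was 1 of 10 at 10 weeks (*Nqo1*; 9.23% of all genes) and 1 of 10 at 40 weeks (*Sod2*; 10.1%), and edgeR and DESeq2 called 0 at both ages. *Nqo1* at 10 weeks ranged from 246 to 420 in KO+AAV (median 320), a range that overlapped both KO and WT. It was 321 ± 59.2 in KO+AAV and 417 ± 66.1 in KO (log2 fold change -0.36, SE 0.13, limma adjusted P = 0.378), and the ICBR libraries alone gave -0.53, the Novogene libraries -0.18.

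At 40 weeks *Nqo1* in KO+AAV was 830, 905, 757, 566 and 645. The groups overlapped, and KO+AAV replicates 4 and 5 lay under the lowest KO library (log2 fold change -0.26, limma adjusted P = 0.593). *Sod2* at 40 weeks was 4633, 4545, 4521, 5307 and 6220 in KO and 5332, 3374, 4197, 3941 and 3864 in KO+AAV. All KO+AAV values but that of replicate 1 lay under every KO value, and the difference was not called (log2 fold change -0.29, SE 0.12, limma adjusted P = 0.409). The log2 fold changes of the other 8 genes lay between -0.23 and 0.24 at 40 weeks. *Hmox1* had the highest at 10 weeks, 0.43 (limma adjusted P = 0.662), with 303 normalized counts in KO+AAV replicate 5 and 77 to 120 in the other 6 libraries. That library also had the highest summed level of macrophage markers, 582 RPM against 50.6 to 188 in the others of its group, and the part of macrophages in *Hmox1* was not tested. For the test of whether KO+AAV against KO differed between ages 0 of the 10 genes and 0.00617% of all genes were called (limma), with 0 of 10 and 5.15% at an unadjusted P under 0.05. edgeR and DESeq2 called 0 of the 10 there.

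Against WT, which is again the same WT group as above, 2 of the 10 genes rose in KO+AAV at 40 weeks (*Nqo1* and *Srxn1*) and none fell, with 12.5% of all genes called. *Nqo1* was 741 ± 137 in KO+AAV, 1.66 times the WT level, without overlap (log2 fold change 0.73, SE 0.15, limma adjusted P = 0.00143). *Srxn1* was 622, 1700, 692, 671 and 716 in KO+AAV at 40 weeks, all above the highest WT value of 590 (log2 fold change 0.76, SE 0.23, limma adjusted P = 0.0225). The value of 1700 came from KO+AAV replicate 2, and without that library *Srxn1* was not called (0.50, limma adjusted P = 0.104). It was also not called without WT replicate 1 (limma adjusted P = 0.0643) or WT replicate 3 (0.0534). At 10 weeks 0 of 10 genes were called in KO+AAV against WT (limma), against 5.15% of all genes. *Gclm* and *Hmox1* were the 2 of 10 at an unadjusted P under 0.05 (18.1% of all genes), and edgeR and DESeq2 called 0. *Gclm* was 285 ± 65.3 in KO+AAV at 10 weeks (log2 fold change to WT -0.55, limma adjusted P = 0.131), close to its 264 ± 36.1 in KO.

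The ages were compared within each genotype with site as a term, since every 40-week gastrocnemius library came from Novogene. *Nqo1* and *Srxn1* rose from 10 to 40 weeks in KO and in KO+AAV, 2 of 10 genes in each, where 8.31% and 8.53% of all genes were called. In WT 0 of 10 genes and 0.148% of all genes were called (limma), with 1 of 10 (*Nqo1*) and 7.46% at an unadjusted P under 0.05, and edgeR and DESeq2 called 0. *Nqo1* was 1.98 times as high at 40 weeks in KO (log2 fold change 0.98, SE 0.16, limma adjusted P = 0.000496) and 2.12 times in KO+AAV (1.08, SE 0.16, limma adjusted P = 3.70e-05). In WT its log2 fold change was 0.39 (limma adjusted P = 0.540). In the Novogene libraries alone *Nqo1* was called in KO (1.09) and KO+AAV (1.02), and its value in WT was 0.35.

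*Srxn1* rose by a log2 fold change of 0.86 in KO (SE 0.23, limma adjusted P = 0.0199) and 1.02 in KO+AAV (SE 0.23, limma adjusted P = 0.00503). Neither was called in the Novogene libraries alone (0.79, limma adjusted P = 0.133, and 0.95, limma adjusted P = 0.0862). Without the library labelled KO replicate 2 at 40 weeks the KO value of *Srxn1* was 0.74 (limma adjusted P = 0.0794), and without KO replicate 6 at 10 weeks it was not called either (limma adjusted P = 0.0526). *Gclc* and *Cat* had log2 fold changes of 0.49 and 0.56 in KO and of 0.49 and 0.53 in KO+AAV, none called. The age effect itself was compared between KO and WT by the test of the difference between ages above, in which *Nqo1* did not pass.

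The GFP experiment tested the vector without *Bmal1*. *Cat* was the 1 of 10 genes that rose in KO+GFP against KO-Control, 1.55-fold, and none fell, where 3.09% of all genes were called. *Cat* was 631, 625 and 618 in KO+GFP and 400, 447 and 368 in KO-Control, with no overlap and little spread among KO+GFP libraries (625 ± 6.85 against 405 ± 39.6). Its log2 fold change was 0.63 (SE 0.095, limma adjusted P = 0.00434), and leaving out any library kept it called. In KO+AAV against KO, where the vector carried *Bmal1*, *Cat* did not rise. Its log2 fold change there was -0.20 at 10 weeks (limma adjusted P = 0.762) and -0.23 at 40 weeks (limma adjusted P = 0.735). *Nfe2l2* was 304, 254 and 238 in KO+GFP and 183, 223 and 187 in KO-Control, also without overlap (log2 fold change 0.42, SE 0.13, limma adjusted P = 0.0948). *Sod2* was 2506, 2169 and 2329 against 2089, 2029 and 1849 (0.23, limma adjusted P = 0.173).

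*Gclc* and *Gclm* lay the other way in the GFP experiment, again without overlap. With 3 libraries in each group there are only 20 arrangements, so full separation of the groups arises easily by chance. *Gclc* was 95, 111 and 115 in KO+GFP and 125, 122 and 148 in KO-Control (log2 fold change -0.30, limma adjusted P = 0.282), and *Gclm* was 116, 122 and 99 against 125, 132 and 147 (-0.26, limma adjusted P = 0.340). *Nqo1* was 179, 108 and 166 against 173, 165 and 217 (-0.31, limma adjusted P = 0.397), and the remaining 4 genes had log2 fold changes from -0.06 to 0.17. Markers moved in the same libraries. Of 9 macrophage markers tested 7 were higher in KO+GFP (*C1qa* by 2.47 on the log2 scale), with a summed level of 85.7 to 135 RPM against 34.5 to 50.3, and *Itgam* was too low to test. Of 8 slow fiber markers 6 were higher, with a summed level of 4874 to 5297 against 936 to 2279. The skeletal muscle markers had 0 of 6 called (limma), with 2 of 6 at an unadjusted P under 0.05, and their summed level was 112736 to 117045 RPM in KO+GFP and 136305 to 151238 in KO-Control, without overlap. The part of macrophages, fiber type and muscle content in *Cat* was not tested.

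**Figure D3:**
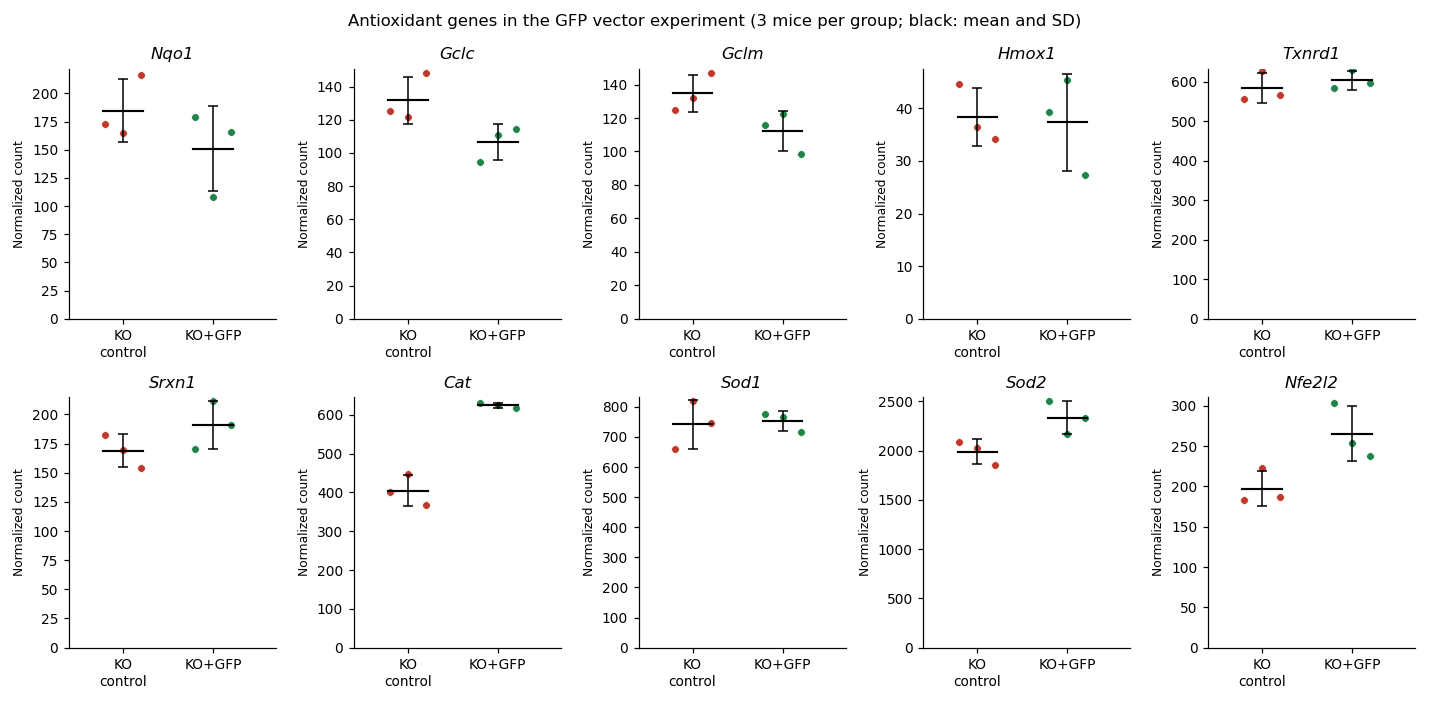
Normalized counts of the 10 genes in the 3 KO-Control and 3 KO+GFP gastrocnemius libraries at 10 weeks, with the mean and SD in black. *Cat* lies between 618 and 631 in KO+GFP and between 368 and 447 in KO-Control.

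Other genes of redox defense were followed in 10 lists. In KO against WT muscle at 40 weeks, where 23.5% of all genes were called, some lists held calls in both directions and others in 1. Of 18 genes of glutathione synthesis and use 3 rose and 2 fell (median log2 fold change -0.02), of 21 glutathione transferases and exporters 2 rose and 2 fell (-0.14), and of 22 thioredoxin and peroxiredoxin genes 5 rose and 1 fell (0.18). Of 15 NRF2 regulators 4 rose (0.26), of 17 NADPH and quinone enzymes 2 rose (-0.01), and of 24 peroxisome genes 8 rose (0.15), with none lower in these 3 lists. Heme and iron genes had 2 higher and 1 lower of 13, metallothioneins 1 higher of 3, and the 5 partners of the superoxide dismutases none called and none at an unadjusted P under 0.05. With both replicate 2 libraries left out the peroxisome count stayed at 8, the NRF2 regulators had 4 higher and 1 lower, and the transferases 1 higher and 4 lower. Among all genes 1855 rose and 1949 fell, with a median of -0.01.

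*Oplah*, 5-oxoprolinase of the glutathione cycle, fell at both ages, to 290 ± 30.5 in KO from 833 ± 93.4 in WT at 10 weeks (log2 fold change -1.52, limma adjusted P = 6.68e-10) and to 284 ± 97.3 from 847 ± 109 at 40 weeks (-1.62, 4.90e-10). *Gstm7*, a mu-class glutathione transferase, rose at both ages, by 2.44 and 2.73 on the log2 scale (138 ± 21.7 against 25.6 ± 8.83 at 10 weeks). *Gstm2*, of the same class, was higher too, by 0.68 at 10 weeks (limma adjusted P = 0.00515) and 0.51 at 40 weeks (0.0332), the latter not called without the library labelled KO replicate 2 (0.49, limma adjusted P = 0.0669) or any of 6 other single libraries. The transferases called lower at 40 weeks were *Gstt1* at 14.5 ± 9.83 against 75.9 ± 9.66 (-2.60) and *Gstm1* at 1100 ± 226 against 1761 ± 192 (-0.70). Transferases of 1 class are alike in sequence, so reads may be split between them.

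Of the NRF2 regulators, *Keap1* was 1479 ± 118 in KO and 1408 ± 50.5 in WT at 40 weeks (log2 fold change 0.07, limma adjusted P = 0.723). *Dpp3*, whose product binds KEAP1, rose (455 ± 103 against 278 ± 23.0, 0.68, limma adjusted P = 0.000969). *Mafk*, a small MAF partner of NRF2, rose by 1.01 (limma adjusted P = 0.0107), or by 0.56 without the library labelled KO replicate 2 (limma adjusted P = 0.0369). *Nfe2l1*, a relative of NRF2 that controls proteasome genes, rose by 0.39 (limma adjusted P = 0.0147), but not without KO replicate 3 (0.28, limma adjusted P = 0.0671).

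Genes of the other lists are given for 40 weeks. *Sesn3*, a sestrin, rose at both ages (1110 ± 411 against 417 ± 28.5 at 40 weeks, log2 fold change 1.32). *Gpx4*, which reduces lipid peroxides, rose (4143 ± 207 against 3080 ± 276, 0.43, limma adjusted P = 0.00141). The methionine sulfoxide reductases split, with *Msrb1* higher (1650 ± 164 against 1003 ± 55.4, 0.71) and *Msrb3* lower (2097 ± 480 against 3623 ± 535, -0.81). Of 14 sources of reactive oxygen 1 rose and 3 fell. The monoamine oxidases *Maob* (108 ± 88.9 against 396 ± 37.3, -2.15) and *Maoa* (-1.21) fell. *Fth1*, the ferritin heavy chain and a known NRF2 target, rose by 0.40 (26262 ± 1392 against 19900 ± 1489, limma adjusted P = 0.00221). *Mt1*, a metallothionein, was called (2.27, limma adjusted P = 0.0261) but not without the library labelled KO replicate 2 (1.33, limma adjusted P = 0.139).

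At 10 weeks 8% of all genes were called in KO against WT, and 19.6% had an unadjusted P under 0.05. The NRF2 regulators, NADPH enzymes, superoxide dismutase partners and metallothioneins had 0 called of 15, 17, 5 and 3 (limma), with 3, 3, 0 and 0 at an unadjusted P under 0.05. The transferases had 2 higher and 4 lower of 21, and *Slc40a1*, the iron exporter ferroportin, fell (302 ± 53.9 against 682 ± 193, log2 fold change -1.14, limma adjusted P = 0.000527). In KO+AAV against KO no gene of the 10 lists was called by limma at either age, with 0 to 4 genes of a list at an unadjusted P under 0.05. Of all genes 0.204% were called at 10 weeks and 0.259% at 40 weeks, and 9.23% and 10.1% had an unadjusted P under 0.05. *Oplah* was 387 ± 47.3 in KO+AAV at 40 weeks, between KO and WT (0.49 to KO, limma adjusted P = 0.159, and -1.13 to WT). In KO+GFP against KO-Control *Txnip*, an inhibitor of thioredoxin, fell from 4123 ± 164 to 1787 ± 373 (-1.23, limma adjusted P = 0.00041), and *Mt2* rose by 2.30 (limma adjusted P = 0.00628), though not without KO+GFP replicate 3 (limma adjusted P = 0.0613).

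**Figure D4:**
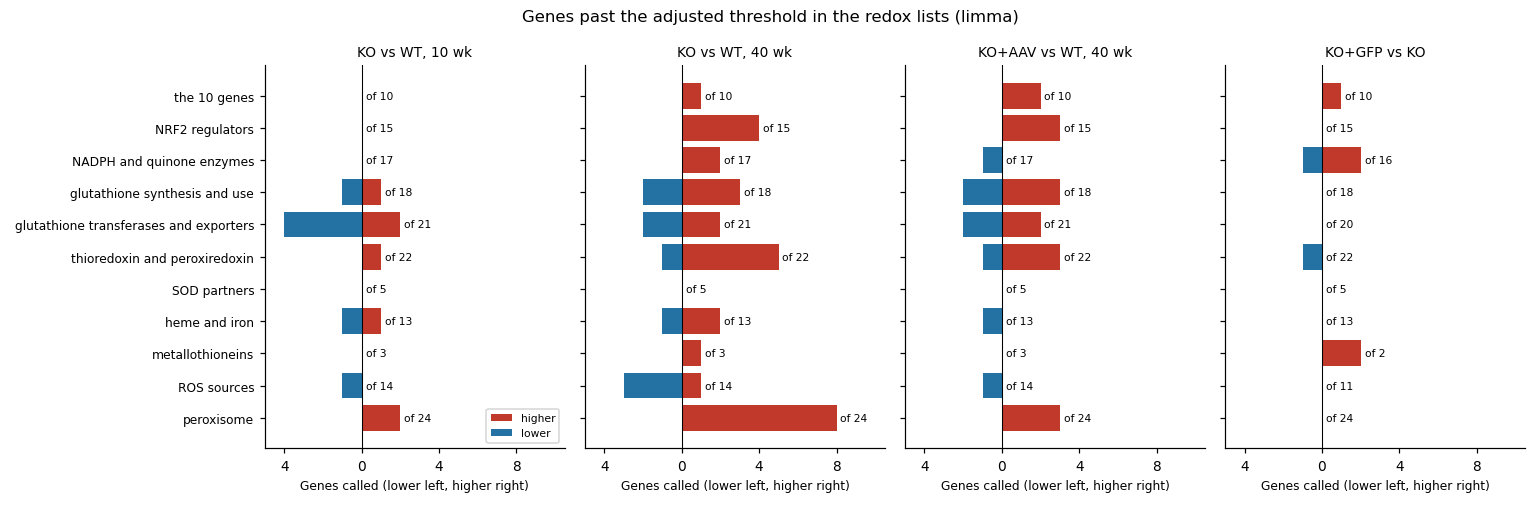
Number of genes called higher (red, to the right) or lower (blue, to the left) by limma in the 10 genes and in each of the 10 redox lists, for 4 comparisons, with the number tested beside each bar. In KO against WT at 40 weeks the peroxisome list has 8 of 24 genes higher, and the glutathione and transferase lists have bars on both sides.

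Levels were compared between genes and tissues as RPKM, reads scaled to exon length and to the reads counted on genes, at 40 weeks and with no test. All gastrocnemius libraries at 40 weeks came from Novogene and all libraries of the other tissues from ICBR (36903079 to 50755829 reads counted on genes), so gastrocnemius and sequencing site cannot be told apart in these orders. The 10 genes did not share 1 order of tissues. *Nqo1* was highest in heart (KO+AAV 79.95 ± 33.1 RPKM) and then gastrocnemius (29.5 ± 4.86), while lung, liver and white fat lay between 4.79 and 6.18 and did not differ beyond their SDs. *Gclc* was the reverse, at 74.4 ± 20.1 in liver and 72.5 ± 4.35 in lung, which did not differ beyond their SDs, 15.02 ± 7.43 in white fat and under 5 in gastrocnemius and heart. *Gclm* was also highest in liver (35.8 ± 1.27) and lowest in gastrocnemius (3.03 ± 1.30), which did not differ from heart beyond the SDs.

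*Cat* spanned the widest range, from 951 ± 78.3 RPKM in liver and 375 ± 69.8 in white fat to 36.6 ± 10.6 in gastrocnemius (KO+AAV). *Sod1* fell in steps larger than the SDs from liver (148 ± 13.1) through white fat, lung and heart (93.3, 73.2 and 40.8) to gastrocnemius (25.95 ± 4.99). *Sod2* had another order, with heart at 56.7 ± 5.43, gastrocnemius at 25.7 ± 4.50 and lung lowest at 11.8 ± 1.58. *Nfe2l2* was highest in lung (50.5 ± 1.60) and lowest in gastrocnemius (11.5 ± 2.06). *Hmox1* was highest in lung and white fat, and *Txnrd1* in liver (22.2 ± 1.72). No neighbours in the order of *Srxn1* in KO+AAV differed beyond both SDs. In KO tissue the spread was wider where heart and white fat replicate 2 entered, as for *Cat* in heart, at 58.6 to 659.7 RPKM with a median of 84.3.

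**Figure D5:**
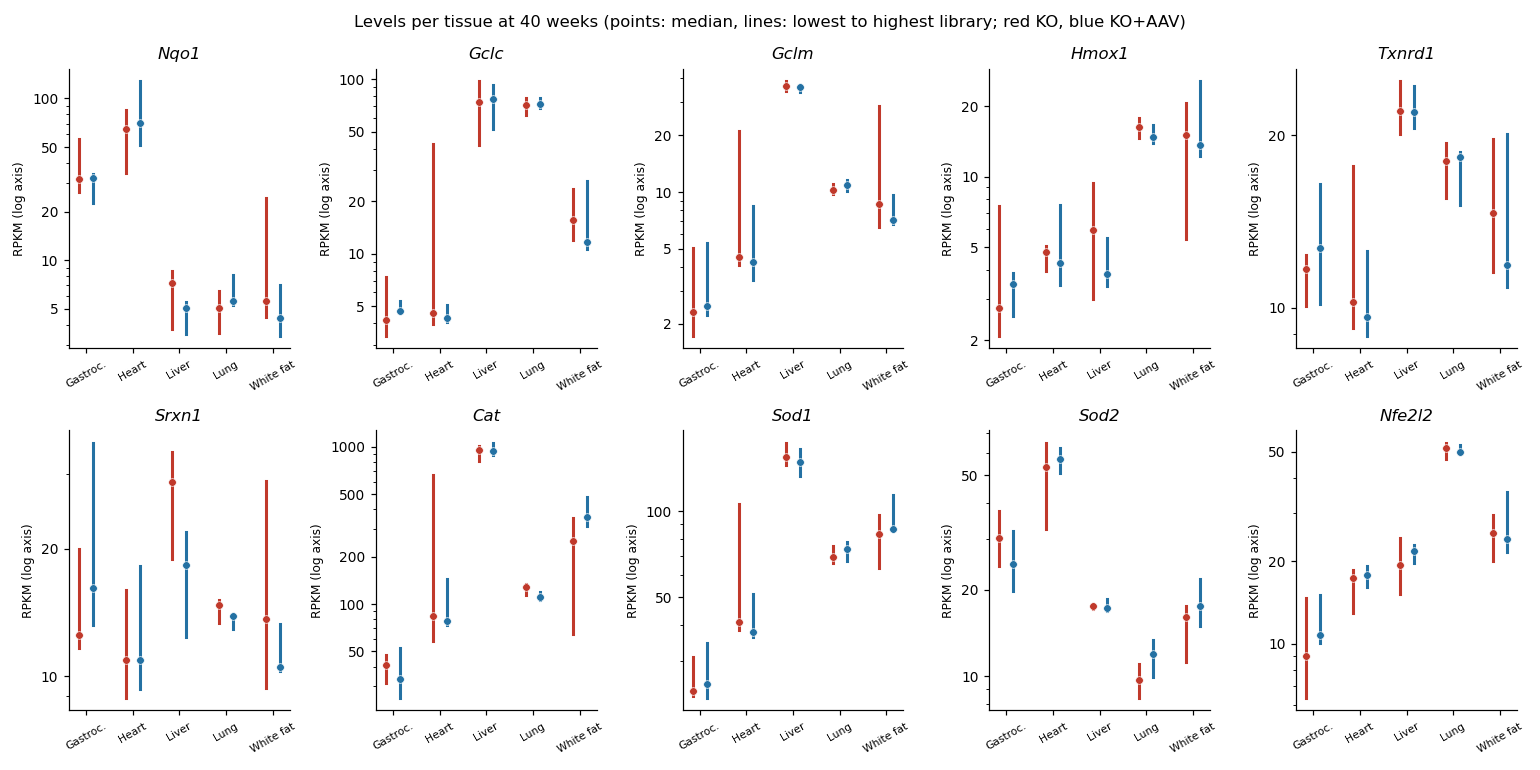
RPKM of the 10 genes in 5 tissues at 40 weeks on a log axis; points are medians and lines run from the lowest to the highest library, red for KO and blue for KO+AAV. *Nqo1* and *Sod2* peak in heart, *Cat*, *Sod1*, *Gclm* and *Txnrd1* in liver, and *Nfe2l2* in lung.

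In the tissues outside gastrocnemius 0 of the 10 genes were called between KO+AAV and KO (limma), and edgeR and DESeq2 called 0 in each. The share of all genes called was 0.0237% in lung and 0% in heart, liver and white fat. At an unadjusted P under 0.05 there was 1 of 10 in lung (*Sod2*; 11.9% of all genes), 1 in liver (*Srxn1*; 3.32%), 0 in heart (1.28%) and 0 in white fat (1.04%). None of the 10 redox lists held a called gene in these tissues (limma). At an unadjusted P under 0.05 the most in a list was 8, in lung, where 11.9% of all genes passed. The size of that list is not given here, so the 8 cannot be set against that share. The lack of calls does not show that the lists were unchanged in lung. *Srxn1* in liver was 2324, 3676, 3908 and 2837 in KO and 2563, 1508, 2283 and 1962 in KO+AAV. Only KO replicate 1 lay inside the KO+AAV range (2079 ± 453 against 3186 ± 737, log2 fold change -0.61, SE 0.20, limma adjusted P = 0.997). *Sod2* in lung was 3874, 4257, 4736 and 4199 in KO and 4742, 4364, 5765 and 5748 in KO+AAV, with 1 KO+AAV value inside the KO range (0.27, limma adjusted P = 0.369). The lungs differed in heart muscle RNA, with *Myh6* at 1918 to 19027 normalized counts in KO and 30771 to 100517 in KO+AAV. Airway basal and gland markers also differed without overlap, summing to 11.4 to 79.6 RPM in KO and 311 to 770 in KO+AAV. Macrophage markers summed to 3403 to 4408 RPM in KO and 2532 to 3347 in KO+AAV, while lung epithelium markers overlapped. The part of these differences in *Sod2*, whose level per length was highest in heart, was not tested.

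*Cat* in white fat was 36413, 6954, 22626 and 44599 in KO and 37247, 48624, 47904 and 47485 in KO+AAV. The log2 fold change was 1.003 with KO replicate 2, the library rich in *Gpx5*, and 0.44 without it, not called either way. In heart *Cat* was 9543, 85132, 9858 and 5346 in KO, with the value of 85132 in the library rich in *Alb*. With that library left out the log2 fold changes of the 10 genes in heart lay between -0.01 and 0.31, none called, and in white fat without KO replicate 2 between -0.14 and 0.44.

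Genes whose levels followed each of the 10 most closely were listed by Pearson's r over the 34 gastrocnemius libraries after removal of site means, as a description. *Nqo1* was closest to *Mvp*, *Nol3* and *Kat2b* (r = 0.84, 0.84 and 0.83). *Sod2* was closest to the mitochondrial genes *Suclg1*, *Idh3a* and *Slc25a12* (0.94 each), and *Sod1* to the proteasome genes *Psma7*, *Psmd7* and *Psma6* (0.93, 0.91 and 0.91). *Srxn1* was closest to *Ubxn4* and to the chaperone genes *Hspb1* and *Hsp90ab1* (0.88, 0.85 and 0.85), and *Cat* to *Arfgef2* and *Slf1* (0.86 and 0.85). *Gclc* was closest to *Rrp12*, *Ap3d1* and *Ppp1r15a* (0.86, 0.85 and 0.85), *Gclm* to *Atf4*, *Rora* and *Lrig1* (0.82, 0.81 and 0.81), *Hmox1* to *Tuba1c*, *Rnh1* and *Hspa5* (0.76, 0.75 and 0.74), *Txnrd1* to *Aars*, *Trim54* and *Ppp2r5d* (0.79, 0.79 and 0.73), and *Nfe2l2* to *Retreg1*, *Atp2c1* and *Mafk* (0.82, 0.82 and 0.81).

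Within the set the highest r was 0.71, between *Srxn1* and *Nfe2l2*, and the lowest -0.53, between *Srxn1* and *Sod2*. Without both replicate 2 libraries at 40 weeks these were 0.50 and -0.38, and r of *Nfe2l2* with *Mafk* went from 0.81 to 0.53. *Nqo1* and *Srxn1* kept 0.59 of 0.63. *Sod1* and *Nfe2l2* had 0.58 with those libraries and -0.02 without them.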

How the data were processed

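RNA was sequenced from 72 libraries, and per the labels and the study's methods the authors aligned poly(A) reads with HISAT2 to GRCm38 (mm10), counted them with HTSeq and normalized them with DESeq2. The deposited tables hold this signal, normalized counts of 55401 genes (99.5% with a symbol), and whole reads could be recovered for 100% of values (tolerance 0.01 read). The annotation release was not given in the sources used here. Main tests were run with limma 3.58.1 (R 4.3.3) on log2(normalized count + 1), with an intensity trend, for genes with a mean above 5. The 34 gastrocnemius libraries entered 1 model with 6 groups and sequencing site. The GFP experiment and each tissue were fitted alone. Exon lengths and gene positions were taken from a GENCODE annotation of GRCm38, which may not be the release the authors counted on. Fold changes are on this scale and understate changes of low genes. The edgeR 4.0.16 and DESeq2 1.42.0 alternatives used the recovered reads. P-values were adjusted over all genes tested. The 10 genes and all lists were chosen with earlier results of these data known. Named were the 10 genes, *Arntl*, examples from up to 3 called genes per list and direction, with *Keap1* and *Myh6*, *Alb* and *Gpx5* added after their values were seen, and the 3 genes closest to each of the 10, of which 1 is not reported here. The labels number the replicates and do not name the animals, and replicates of a group were taken as separate mice. Precision is limited by the number of mice and, for *Hmox1*, by reads. The scripts were tested on simulated data with a set spread. That spread followed 1 rule in all groups with no library set apart, whereas *Gclm* was 296 ± 172 in KO at 40 weeks. The shares recovered below therefore do not hold for genes as variable as that. In the layout of KO against WT at 40 weeks limma recovered 74% of simulated 2-fold changes, and 12% of all its calls were false. These shares were 81% and 4% for 10 weeks, 67% and 5% for the GFP experiment, and 80% and 5.6% for lung.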

Additional observations from a re-analysis of the deposited data

Results flagged for a closer look

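In 140 groups of 4 to 7 libraries, 1 for each gene and group, 26 held a library whose gap to its nearest neighbour was over Dixon's limit. Chance gives about 1 in 20 for independent, normally distributed values. These counts were not logged and the genes share their libraries, so the 26 cannot be set against that rate. Values are normalized counts, and for none was a cause tested.

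In gastrocnemius at 40 weeks the library labelled KO replicate 2 stood above its group in 5 genes: *Gclc* at 518 (others 211 to 262), *Gclm* at 599.9 (190 to 247), *Hmox1* at 245 (60.7 to 94.6), *Sod1* at 2316 (1491 to 1627) and *Nfe2l2* at 1042 (421 to 568). KO+AAV replicate 2 stood above its group in 3 genes, *Gclm* at 571 (234 to 266), *Srxn1* at 1700 (622 to 716) and *Nfe2l2* at 975 (591 to 684). *Nqo1* was 1304 in KO replicate 3 against 725 to 862. At 10 weeks *Hmox1* was 303 in KO+AAV replicate 5 (76.5 to 120), *Cat* was 1471 in KO+AAV replicate 6 (881 to 1074), and *Nfe2l2* was 704 in WT replicate 4 (445 to 524).

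In heart KO replicate 2, the library rich in *Alb*, was high in 5 genes: *Gclc* at 7848 (619 to 715), *Gclm* at 6557 (935 to 1299), *Txnrd1* at 6196 (2643 to 2963), *Cat* at 85132 (5346 to 9858) and *Sod1* at 20781 (5756 to 6935). *Sod1* was 8530 in KO+AAV heart replicate 2 (5968 to 6395). In white fat KO replicate 2, the library rich in *Gpx5*, *Nqo1* was 1573 (334 to 395) and *Gclm* 7496 (1971 to 2646). In KO+AAV white fat *Gclc* was 3853 (2054 to 2184) and *Hmox1* 1753 (1093 to 1178) in replicate 2, and *Cat* was low at 37247 (47485 to 48624) and *Sod1* at 15571 (17514 to 17798) in replicate 1. In KO+AAV lung *Nqo1* was 566 in replicate 4 (358 to 390), and *Txnrd1* was low at 4585 in replicate 1 (5698 to 5841).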

How the results depend on the processing

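Counts of the 10 genes called stayed within 1.5 times of those reported under 319 of 339 alternatives. A count of 0 that stayed 0 was included, and the reported count was 0 in most comparisons. Directions of single genes were followed only where the main limma fit gave an unadjusted P under 0.05, so changes near 0 were not followed. None turned in these 621 alternative values, of which 8 lost a call and 29 gained one. In KO against WT at 10 weeks DESeq2 called 1 of the 10 (*Nqo1*), library quality weights 4 (*Nqo1*, *Sod2*, *Gclm* and *Gclc*), and leaving out single libraries 0 to 1 (*Nqo1*, without KO replicate 5). At 40 weeks a filter at a mean over 50 gave 2 (*Nqo1* and *Cat*) and leaving out single libraries 1 to 2. In KO+AAV against WT weights called 1 at 10 weeks (*Gclm*). At 40 weeks leaving out single libraries gave 1 to 2, and leaving out both replicate 2 libraries, an alternative chosen after seeing the data, gave 1 (*Nqo1*). In 40 against 10 weeks DESeq2 called 4 in KO (*Nqo1*, *Cat*, *Gclc* and *Srxn1*), weights called 5 in KO+AAV (*Nqo1*, *Sod2*, *Nfe2l2*, *Gclc* and *Srxn1*), and the Novogene libraries alone, also chosen after seeing the data, gave 1 in each (*Nqo1*). Leaving out single libraries gave 1 to 3 in KO and 2 to 3 in KO+AAV. At an unadjusted limma P under 0.01, the level the study used with DESeq2, the count was 2 of 10 (*Nqo1* and *Gclm*) in KO against WT at 10 weeks, 1 (*Nqo1*) at 40 weeks and 0 in KO+AAV against KO at both ages, where 1758, 3637, 426 and 526 of all 16199 genes passed. Scaling moved the median of all genes by at most 0.0336 (log2).

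Counts over all genes depended more on the tool. Weights gave 3416 calls against 1296 in KO against WT at 10 weeks, 3165 against 2018 in KO+AAV against WT at 40 weeks, 868 against 448 in the GFP experiment and 531 against 1346 for age in KO. In KO+AAV against KO, DESeq2 gave 147 and weights 180 against 33 at 10 weeks, and 79 and 24 against 42 at 40 weeks. In KO+AAV against WT at 10 weeks they gave 1396 and 1698 against 834, and for age in WT 63 and 171 against 24. For the difference between ages in KO against WT edgeR, DESeq2 and weights gave 39, 206 and 118 against 60, and in KO+AAV against KO 0, 5 and 0 against 1. In lung they gave 4, 628 and 445 against 5, and in liver 0, 8 and 0 against 0. The cause was not tested.

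Replicate numbers are shared between groups, but in 0 of 11 comparisons did the deviations of every same-numbered pair correlate at r over 0.1 (r from -0.488 to 0.702), although all r were above 0 in KO against WT at 10 weeks (0.0724 to 0.254) and in the GFP experiment (0.0199 to 0.0673), so the numbers were not taken as pairs. With the replicate number as a block 1 of the 10 genes was called in KO against WT at 10 weeks (*Gclm*) and 4 at 40 weeks (*Nqo1*, *Sod1*, *Cat* and *Srxn1*).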

Other observations

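Replicate 2 of KO+AAV had the highest value for 9 of the 10 genes in heart and for 7 in white fat, as it had for 9 in gastrocnemius, but for 2 in liver and 3 in lung. Whether these samples came from 1 animal is not given in the labels.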
